A study of Mus musculus with 8 samples.

Results

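Lim1 conditional mutant kidneys were compared between embryonic day (E) 14.5 and E18.5 on 4 of the 8 arrays of the series, namely the 2 arrays titled as E18.5 mutant kidney and the 2 titled as E14.5 mutant kidney. The arrays were chosen by their titles alone. The other 4 arrays, of control kidneys at the same stages, are used here for side-by-side values. The mutants were Lim1flox/lacZ; Rarb2-Cretg/+ embryos and the controls Lim1flox/+; Rarb2Cretg/+ embryos, so both genotypes carried the Cre transgene and 1 floxed Lim1 allele, and both were of mixed sex on a mixed 129, C57BL/6 and SJL/J background. In the mutants the lacZ allele, which is null, was present in every cell and the floxed allele was removed where the Rarb2-Cre transgene is active, the metanephric mesenchyme, so the ureteric bud and its branches kept 1 Lim1 allele. Whole kidneys of 17 embryos were pooled for the E14.5 mutant and of 9 embryos for the E18.5 mutant, against 23 and 14 embryos for the controls.

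The metanephric kidney forms from an epithelial tube, the ureteric bud, that branches within a mesenchyme. The bud gives rise to the collecting ducts, ureter and pelvis, and the mesenchyme condenses around the bud tips, turns into epithelium through a renal vesicle and elongates into the nephron with its glomerulus, proximal tubule, loop of Henle and distal tubule, while other mesenchymal cells become interstitium, smooth muscle and pericytes. Lim1 (Lhx1) encodes a LIM homeodomain transcription factor that the renal vesicle needs to go further, and kidneys without it in the mesenchyme are small and have few or no nephrons. The comparison of E18.5 mutant with E14.5 mutant kidneys therefore asks which genes change between these stages in an organ whose nephron lineage is largely missing.

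Each condition was 1 RNA pool, and its 2 arrays were 2 target preparations of that RNA, so no p-value between stages can be had and every count below is a count by criteria of size. A probe set was counted as higher at one stage when the ratio of the means of the duplicates was at least 2 and larger than the fold between the duplicates of either pool, when the mean signal of the higher stage times the ratio was above 100, and when both arrays of the higher stage were at or above their own 40th percentile of signal. Signals are the deposited intensities, in arbitrary units, which may be compared between arrays for 1 probe set and not between genes. The error of a ratio is its range over the 4 pairings of an E18.5 array with an E14.5 array, which covers the target preparation and the array but not the spread between embryos. Since whole kidneys were measured, fewer cells of a type and less RNA per cell cannot be told apart in any of the values below.

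By any probe set, 284 genes were higher at E18.5 and 351 were higher at E14.5 in the mutant, which are 1.00% and 1.24% of the 28337 named genes and unnamed probe sets. With a single probe set per named gene, its brightest by the mean over the 8 arrays, 163 genes (0.896% of 18194) were higher at E18.5 and 135 (0.742%) at E14.5. The same criteria in the control kidneys gave 970 genes higher at E18.5 (3.42%) and 717 higher at E14.5 (2.53%) by any probe set, and 649 (3.57%) and 220 (1.21%) by the brightest. The E18.5 mutant duplicates were the least alike, with a median fold between them of 1.16 against 1.09 in the E14.5 mutant, and between these 2 preparations of 1 RNA, 136 genes met the ratio and signal limits with array 1 as the higher and 20 with array 2. Among the probe sets higher at E14.5, 89 of 401 differed 1.5-fold or more between the E18.5 mutant arrays, 83 of them with array 1 as the higher, compared to 9 of 325 among those higher at E18.5. Of the 163 genes higher at E18.5 by the brightest probe set, 160 had the higher of their E18.5 mutant signals on array 2, as had 4287 of the 6064 genes whose mean signal over the 4 mutant arrays was above 500. Without those probe sets, 162 genes higher at E18.5 and 115 higher at E14.5 were counted. The part of this difference between preparations in the stage ratios was not tested.

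Lhx1 itself was measured by 2 probe sets that differed in direction. The brighter had signals of 563 and 554 at E14.5 and of 296 and 333 at E18.5 in the mutant, a ratio of 0.563 (0.525-0.601), and the other had a ratio of 1.37 (1.17-1.58), so that neither was counted at either stage. In the controls the brighter probe set had a mean signal that went from 483 to 361. Where these probe sets lie relative to the deleted part of the gene is not given in the sources used here, the ureteric bud of the mutants keeps an allele, and the signal therefore does not check the deletion.

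The 2 genes with the highest ratio at E18.5 encode structural proteins of surface epithelia. Sprr2f, a small proline-rich protein of the cornified envelope, had signals of 84.5 and 103 at E14.5 and of 3078 and 3189 at E18.5 in the mutant, a ratio of 33.4 (29.8-37.8). Tchh, trichohyalin, a structural protein of the hair follicle's inner root sheath, had signals of 12.3 and 16.5 at E14.5 and of 331 and 460 at E18.5, a ratio of 27.4 (20.0-37.4). In neither gene did the stages overlap, and the E14.5 signals of both lay below the 40th percentile of their arrays, which was 184 on array 1 and 182 on array 2, those of Tchh far below it, so that both ratios rest on low signals. Sprr2f belongs to a cluster of closely related genes, which a probe set may not tell apart. The control kidneys had lower ratios, 4.18 for Sprr2f (mean signals of 113 and 471) and 5.35 for Tchh (24.3 and 130).

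Genes whose ratio in the mutant most exceeded that in the control were chosen after their values were seen. Plet1, a surface protein of epithelial progenitors, had signals of 355 and 320 at E14.5 and of 1651 and 2034 at E18.5, a ratio of 5.46 (4.65-6.36), whereas the control ratio was 1.48. A further Plet1 probe set gave 6.53 and another 1.15. Gsdmc2, a gasdermin, had signals of 340 and 329 at E14.5 and of 1165 and 1331 at E18.5, with a ratio of 3.73 (3.43-4.05) in the mutant and of 1.21 in the control. Krtdap, a secreted protein of differentiating keratinocytes, reached a ratio of 2.02 (1.79-2.29) in the mutant and 0.765 in the control, and Ctse, the aspartic protease cathepsin E, and Olfm4, a secreted olfactomedin of gut epithelium, had mutant ratios of 2.13 and 2.14 against control ratios of 1.24 and 1.28. Apela, which encodes a peptide ligand of the apelin receptor, had signals of 181 and 177 at E14.5 and of 657 and 790 at E18.5, a ratio of 4.05 (3.64-4.47) beside 2.17 in the control. The difference of a stage ratio between genotypes was not tested, since 4 pools leave no residual degrees of freedom.

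**Figure D1:**
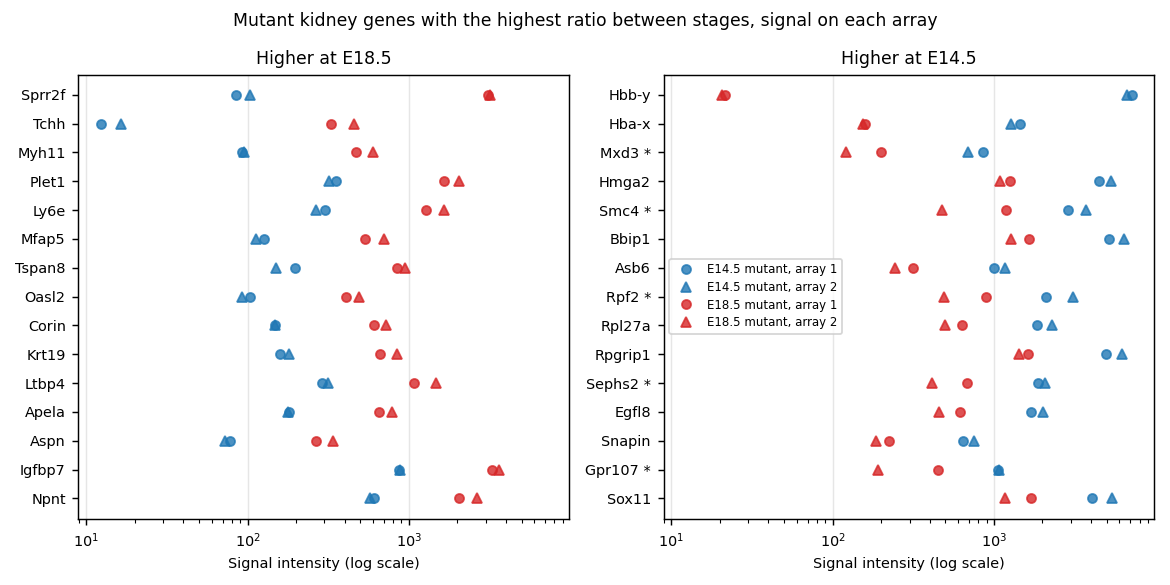
Signal (log scale) on each of the 4 mutant arrays for the 15 genes with the highest ratio in each direction by their brightest probe set, with circles for array 1 and triangles for array 2, and with an asterisk where the E18.5 mutant arrays differed 1.5-fold or more. Sprr2f and Tchh stand apart on the left and Hbb-y on the right, and 5 of the 15 genes higher at E14.5 carry the asterisk, against 0 of the 15 higher at E18.5.

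Other leading genes at E18.5 had ratios in the control that were near to or above those in the mutant. Ly6e, a surface protein anchored by a lipid, had signals of 302 and 265 at E14.5 and of 1274 and 1664 at E18.5, a ratio of 5.19 (4.22-6.28) against 4.94 in the control. Tspan8, a tetraspanin, reached 5.15 (4.29-6.28) and Corin, the protease that activates the atrial natriuretic peptide precursor, 4.48 (4.08-4.88), while their control ratios were 4.16 and 4.35. Npnt, nephronectin, a ligand of the integrin of the mesenchyme that the ureteric epithelium deposits, had signals of 610 and 578 at E14.5 and of 2047 and 2639 at E18.5, a ratio of 3.95 (3.36-4.57) against 5.99 in the control. Igfbp7, a secreted binding protein for insulin-like growth factors, had a mutant ratio of 3.96 and a control ratio of 5.42. Dimmer probe sets gave lower mutant ratios, 1.27 for Ly6e, 1.09 to 2.47 for Tspan8, and 1.04 and 1.65 for Igfbp7, none of them counted. Those of Npnt gave 2.03 to 2.92 and were counted.

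Collecting duct genes were in part higher at E18.5 in the mutant. Of 21 principal cell genes on the array, 5 were higher at E18.5, 18 had a ratio above 1, and the median log2 ratio was 0.36 (range over the pairings 0.30 to 0.37), compared to 0.02 (-0.03 to 0.06) over all named genes. The summed signal of the list was 12462 and 12577 on the E14.5 arrays and 17268 and 18700 on the E18.5 arrays. In the control, 7 of the 21 were higher at E18.5 and the median was 0.45.

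Krt19, a keratin of simple and ductal epithelia, had signals of 160 and 180 at E14.5 and of 661 and 840 at E18.5, a ratio of 4.42 (3.68-5.25) against 2.30 in the control. Fxyd4, a regulator of the sodium pump in the collecting duct, had signals of 365 and 313 at E14.5 and of 1145 and 1432 at E18.5, a ratio of 3.80 (3.14-4.58), and Scnn1b, the beta subunit of the epithelial sodium channel, had a ratio of 2.89 (2.54-3.26). Cdh1, E-cadherin, the adhesion molecule of most epithelia, reached 2.18 (1.79-2.66). Aqp2, the water channel that vasopressin moves to the apical membrane, behaved unlike these. It had signals of 143 and 125 at E14.5 and of 281 and 296 at E18.5 in the mutant, a ratio of 2.16 (1.97-2.38), whereas in the control its mean went from 158 to 2646, a ratio of 16.8. Aqp3 and Aqp4, the basolateral water channels, differed between their probe sets. The brightest of Aqp3 had a ratio of 1.28 in the mutant and 2.42 in the control, a dimmer one was counted at 2.14 (2.02-2.25) against 4.87, and the others gave 4.77 and 1.04. The brightest of Aqp4 had 1.22 in the mutant and 0.962 in the control, whereas a dimmer one had 3.33 (2.56-4.23) against 5.97 and another 1.05. Avpr2, the vasopressin receptor, had a ratio of 1.01.

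Among 11 intercalated cell genes, which serve acid and base transport, 1 was higher at E18.5, with a median log2 ratio of 0.09 in the mutant, against 4 and 0.78 in the control. Car12, a membrane carbonic anhydrase, was the gene counted, with signals of 92.2 and 91.2 at E14.5 and of 232 and 274 at E18.5 and a ratio of 2.76 (2.52-3.01), while its control mean went from 109 to 1093. Atp6v1b1, a proton pump subunit of these cells, had a mutant ratio of 1.28 and a control ratio of 4.60. Of 14 urothelial genes, 2 were higher at E18.5 in each genotype by the brightest probe set. Krt7 had signals of 268 and 307 at E14.5 and of 682 and 847 at E18.5, a ratio of 2.66 (2.22-3.16), and Upk3a, an uroplakin of the apical plaques, had a ratio of 2.21 (1.94-2.54). The uroplakins Upk1a and Upk2 had ratios of 1.15 and 0.882. Upk1b had 1.26 by its brightest probe set and 1.53, 1.60 and 2.05 (1.85-2.25) by the others, the last of which was counted. Krt7 is also expressed in collecting duct.

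Interstitial matrix genes had the highest median of the 36 lists. Of 35 on the array, 33 had a ratio above 1, 14 were higher at E18.5 (13 without the probe sets that differed 1.5-fold) and the median log2 ratio was 0.80 (0.72 to 0.88). In the control the count was 15 and the median 0.84 (0.80 to 0.88). The summed signal in the mutant was 38098 and 40897 at E14.5 and 62250 and 70593 at E18.5.

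Mfap5, a glycoprotein of elastic microfibrils, had signals of 127 and 113 at E14.5 and of 535 and 703 at E18.5, the highest ratio of the list at 5.18 (4.22-6.25). Of the other members, Fbln5, which guides the assembly of elastic fibres, was at 3.42 (2.88-3.98), Lox, the enzyme that cross-links collagen and elastin, at 2.83 (2.45-3.22), and Eln, elastin, at 2.57 (2.38-2.77). Eln had signals of 308 and 296 at E14.5 and of 731 and 819 at E18.5. Col15a1, a collagen of basement membrane zones, had signals of 373 and 386 at E14.5 and of 1245 and 1708 at E18.5, a ratio of 3.89 (3.22-4.58). The chains of collagen VI had ratios of 2.41 for Col6a1, 2.91 for Col6a2 and 2.56 for Col6a3, and Fn1, fibronectin, reached 2.01 (1.87-2.17). The fibrillar collagens were below 2 in ratio, with 1.57 for Col1a1, 1.89 for Col1a2, 1.87 for Col3a1 and 1.61 for Col5a1, although in each of them both E18.5 signals exceeded both E14.5 signals. Mfap4, at 2.00 (1.52-2.54), differed 1.5-fold or more between the E18.5 mutant arrays. Outside the list, Ltbp4, which binds latent TGF-beta and elastic fibres, had signals of 291 and 316 at E14.5 and of 1073 and 1472 at E18.5, a ratio of 4.19 (3.39-5.05), and Aspn, asporin, a small proteoglycan, had a ratio of 4.02 (3.39-4.69).

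Of 20 smooth muscle and pericyte genes, 5 were higher at E18.5, 18 had a ratio above 1 and the median log2 ratio was 0.37 (0.24 to 0.52), against 7 higher, 1 lower and a median of 0.65 (0.49 to 0.81) in the control. The genes counted were contractile. Myh11, the smooth muscle myosin heavy chain, had signals of 92.0 and 95.4 at E14.5 and of 471 and 599 at E18.5, a ratio of 5.71 (4.93-6.51). Tagln, an actin-binding protein, had signals of 392 and 411 at E14.5 and of 1470 and 1688 at E18.5, a ratio of 3.93 (3.58-4.31). Myl9, a regulatory myosin light chain, had signals of 709 and 640 at E14.5 and of 2192 and 2581 at E18.5, a ratio of 3.54 (3.09-4.03). Acta2, smooth muscle actin, reached 3.02 (2.82-3.26) and Mylk, the myosin light chain kinase, 2.89 (2.68-3.12), and the control ratios of these 5 genes lay between 2.25 for Mylk and 4.23 for Myh11. Cnn1, calponin, was at 1.10.

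Contractile genes are known targets of serum response factor, which binds the CArG box. Of 15 genes of the list with a promoter in the RefSeq table, 1 held a CArG box within 250 bases before the start, compared to 1.62% of 27025 genes and 1.47% of 32851 promoters when both strands were searched. It was Myl9, whose stretch (GRCm38.p6, chr2:156775214-156775463, plus strand) is shown 5′ to 3′ because it joins the motif to a gene of the contractile group, with the motif, whose first base lies 161 bases before the start, in capitals.
Myl9: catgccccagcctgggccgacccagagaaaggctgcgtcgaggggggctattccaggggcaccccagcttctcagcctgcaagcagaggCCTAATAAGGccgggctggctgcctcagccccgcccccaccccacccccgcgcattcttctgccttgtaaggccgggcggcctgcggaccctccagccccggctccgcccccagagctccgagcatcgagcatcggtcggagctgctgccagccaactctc
The match describes these letters only, and no match in a window says nothing of the factor.

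Stromal progenitor and retinoid genes moved in both directions. Of 18 on the array, 3 were higher at E18.5 and 2 at E14.5, with a median log2 ratio of 0.06. Foxd1, the forkhead factor of cortical stromal progenitors, had signals of 1636 and 1542 at E14.5 and of 481 and 528 at E18.5, and was 3.15-fold (2.92-3.40) higher at E14.5, with a control ratio of 0.265. Crabp1, which binds retinoic acid in the cytoplasm, had signals of 265 and 305 at E14.5 and of 105 and 106 at E18.5, 2.70-fold (2.50-2.90) higher at E14.5, whereas its control ratio was 1.22. Penk, which encodes the enkephalin precursor, had signals of 987 and 1150 at E14.5 and of 3493 and 3807 at E18.5, a ratio of 3.42 (3.04-3.86). Aldh1a3, an enzyme of retinoic acid synthesis, had signals of 788 and 723 at E14.5 and of 1946 and 2050 at E18.5, a ratio of 2.64 (2.47-2.84) against 1.62 in the control, and its 3 probe sets ranged from 1.37 to 3.18. Dcn, decorin, which is on both the stromal and the matrix list, had a ratio of 2.02 (1.72-2.43). Meis1, Meis2 and Tbx18, transcription factors of the stroma, were not counted, at 0.928, 0.678 and 0.731.

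**Figure D2:**
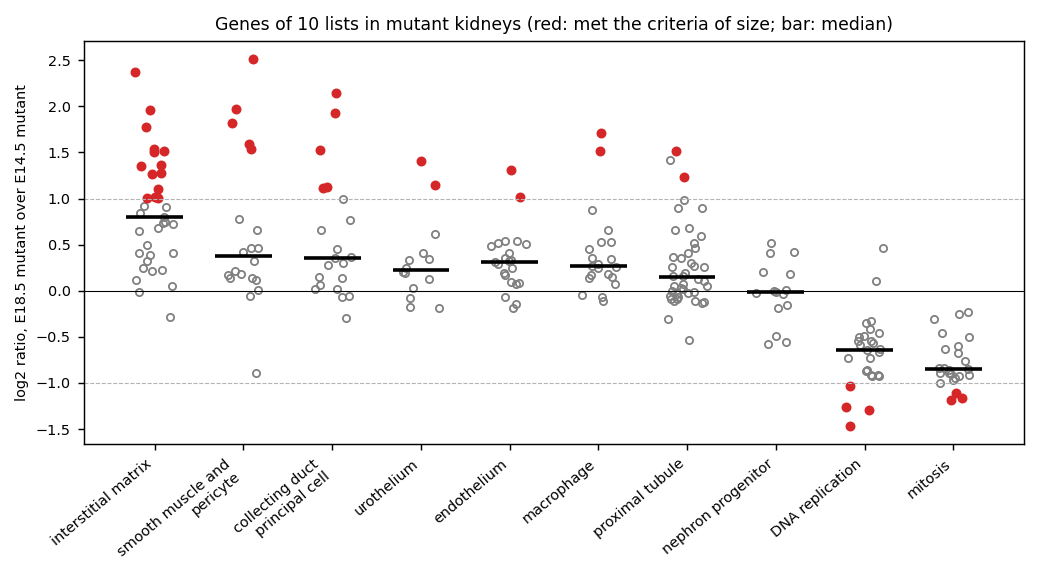
The log2 stage ratio (E18.5 mutant divided by E14.5 mutant) for every gene on the array of 10 lists, 1 point a gene, with genes that met the criteria in red, list medians as bars and dashed lines at a 2-fold ratio. Interstitial matrix (median 0.80) lies above 0 and DNA replication (-0.65) and mitosis (-0.85) below it, while the proximal tubule list (0.15) stays near 0 apart from a few genes.

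Endothelial genes mostly had ratios a little above 1. Of 22 endothelial genes, 19 had a ratio above 1 and 2 were counted, with a median log2 ratio of 0.31 (0.18 to 0.47) against 0.70 in the control. Tie1, a receptor kinase of endothelium, had signals of 231 and 236 at E14.5 and of 494 and 663 at E18.5, a ratio of 2.48 (2.09-2.87), and Sox17, a factor of arterial endothelium, had a ratio of 2.02 (1.68-2.44). The defining markers Pecam1 and Cdh5 were at 1.46 and 1.15, with 1.99 (1.83-2.16) by the other Cdh5 probe set. Of the VEGF receptors, Kdr was at 0.880, and Flt1 at 0.905 by its brightest probe set and at 1.09, 1.30 and 1.38 by the others. In the renin-angiotensin list, 1 of 7 genes was counted, Agtr1a, the type 1 angiotensin receptor, with signals of 140 and 159 at E14.5 and of 362 and 407 at E18.5 and a ratio of 2.57 (2.28-2.90).

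Of 21 macrophage genes, 18 had a ratio above 1 and 2 were counted, and the median log2 ratio was 0.27 (0.22 to 0.46), compared to 1 counted and 0.09 (0.02 to 0.18) in the control. The counted genes encode chains of complement C1q. C1qc had signals of 219 and 182 at E14.5 and of 571 and 736 at E18.5, a ratio of 3.26 (2.61-4.05), and C1qa had signals of 182 and 193 at E14.5 and of 469 and 602 at E18.5, a ratio of 2.85 (2.42-3.30). The defining markers Csf1r and Adgre1 had ratios of 1.20 and 1.19, and Cd68 1.83. Of 19 genes of other leukocytes, Ptprc, the common leukocyte antigen, was counted at 2.74 (2.44-3.06) and S100a9, of neutrophils, at 2.18 (2.07-2.30), while the T cell genes Cd3e and Cd8a were at 1.04 and 0.944. Among 10 complement genes, C1ra, which is part of the C1 complex, had a ratio of 2.46 (2.31-2.62) and Serping1, the inhibitor of C1, of 2.19 (1.78-2.61).

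Antigen presentation and interferon genes were higher at E18.5 in 5 of 18 cases in each genotype, with 16 of 18 ratios above 1 in the mutant and a median log2 ratio of 0.31 (0.25 to 0.44). Oasl2, an interferon-induced protein related to oligoadenylate synthetases, had signals of 104 and 92.2 at E14.5 and of 405 and 492 at E18.5, a ratio of 4.57 (3.89-5.33). Ifitm3, a membrane protein that restricts virus entry, had signals of 980 and 899 at E14.5 and of 3380 and 3346 at E18.5, a ratio of 3.58 (3.42-3.76). Bst2, tetherin, which retains virus particles at the cell surface, had signals of 167 and 144 at E14.5 and of 397 and 505 at E18.5, a ratio of 2.90 (2.38-3.51). B2m, the light chain of class I molecules, had signals of 1579 and 1080 at E14.5 and of 2234 and 3318 at E18.5, a ratio of 2.09 with pairings from 1.42 to 3.07, and H2-D1, a class I heavy chain, reached 2.03 (1.79-2.35). The class II gene H2-Aa was at 0.996. The H2 class I genes are near-identical copies, whose signals a probe set may not tell apart.

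The core of the interferon-stimulated response element, searched on both strands as GAAA, any 2 bases and GAAA, was found in 2 of the 5 genes counted, B2m and Bst2, and in 4 of 15 genes of the list with a promoter, against 3.46% of all genes and 2.98% of all promoters. The 250 bases before the start of both are shown because they hold the element in genes that were higher at E18.5 (GRCm38.p6, B2m at chr2:122147437-122147686, plus strand, and Bst2 at chr8:71537473-71537722, minus strand, given 5′ to 3′ along the gene), with the element in capitals. In Bst2 a pair of matches overlap.
B2m: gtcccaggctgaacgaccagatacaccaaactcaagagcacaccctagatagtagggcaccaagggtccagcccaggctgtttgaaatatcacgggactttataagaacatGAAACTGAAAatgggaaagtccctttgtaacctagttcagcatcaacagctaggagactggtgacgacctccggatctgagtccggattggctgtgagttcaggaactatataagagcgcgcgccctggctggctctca
Bst2: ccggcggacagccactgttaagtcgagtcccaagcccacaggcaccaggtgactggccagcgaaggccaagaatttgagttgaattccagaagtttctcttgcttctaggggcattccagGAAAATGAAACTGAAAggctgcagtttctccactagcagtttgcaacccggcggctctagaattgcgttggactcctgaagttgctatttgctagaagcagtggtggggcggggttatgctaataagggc

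Genes of the nephron segments, which are mostly missing in the mutant, changed little by their list medians. Over all named genes, 0.896% were counted as higher at E18.5 in the mutant and 3.57% in the control. A count of 0 in a short list is therefore near the mutant share. Of 42 proximal tubule genes, 17 were at or above the 40th percentile on both arrays of at least 1 stage, 2 were higher at E18.5, with a median log2 ratio of 0.15 (0.06 to 0.22), whereas in the control 29 were higher at E18.5 and the median was 3.13 (3.05 to 3.21). Slc34a1, the phosphate transporter of the brush border, had signals of 61.4 and 71.3 at E14.5 and of 85.2 and 73.8 at E18.5 in the mutant, while its control mean went from 143 to 5044. Lrp2 and Cubn, megalin and cubilin, the receptors that take up filtered protein, had mutant ratios of 1.14 and 1.01 and control ratios of 13.6 and 13.1.

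The proximal tubule genes that were counted were Aqp1 and Dpp4, and whole kidneys do not show which cells gave their signals. Aqp1, a water channel of proximal tubule, thin limb and vessels, had signals of 127 and 158 at E14.5 and of 375 and 440 at E18.5, a ratio of 2.86 (2.37-3.47) against 14.9 in the control. Dpp4, a surface peptidase, had signals of 218 and 220 at E14.5 and of 433 and 600 at E18.5, a ratio of 2.35 (1.96-2.75). In the loop of Henle list, 6 of 13 genes were at or above the minimum signal on both mutant arrays of at least 1 stage. The median log2 ratio of the list was 0.12 in the mutant and 0.87 in the control. Of the 13 genes, 0 were counted in the mutant and 6 in the control. Umod, uromodulin, had signals of 51.9 and 49.4 at E14.5 and of 51.7 and 42.8 at E18.5 in the mutant. Its control mean went from 68.3 to 1835. Slc12a1, the cotransporter that furosemide blocks, had a mutant ratio of 1.36 (1.27-1.46) and a control ratio of 12.6. Of 13 distal and connecting tubule genes, 10 were at or above the minimum signal in the same sense. The median was 0.22 in the mutant and 0.35 in the control, and 0 were counted in the mutant, against 5 in the control. Calb1, calbindin, which the collecting duct also expresses, was at 1.23. Slc12a3 had a mutant ratio of 0.814 and a control ratio of 3.92, and Trpm6 had 0.912 and 0.844. S100g, another calcium-binding protein, was chosen after its values were seen. Its signals in the mutant were 81.0 and 67.1 at E14.5 and 81.9 and 88.8 at E18.5, with a control ratio of 29.6.

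Of 19 podocyte genes, 18 were at or above the minimum signal on both arrays of at least 1 stage, as were 13466 of all 18194 named genes. In the mutant 0 podocyte genes were counted and in the control 3, and the median log2 ratios were 0.11 and 0.34. Nphs1, nephrin of the slit diaphragm, had signals of 650 and 454 at E14.5 and of 549 and 545 at E18.5, a ratio of 0.991 (0.839-1.21), and Wt1, a factor shared by podocytes and nephron progenitors, was at 0.968. Synpo, synaptopodin of mature foot processes, had a mutant ratio of 1.65 (1.43-1.89) and a control ratio of 3.41.

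Genes of the steps before nephron segments form are given next. Over all named genes, 0.896% were counted as higher at E18.5 in the mutant and 0.742% at E14.5, so a count of 0 in a short list is near those shares. Of 15 nephron progenitor genes, all had signals at or above the minimum at 1 stage or both, 0 were counted in the mutant and 3 were higher at E14.5 in the control. Those were Six2, Eya1 and Sall1, factors of the cap mesenchyme. Six2 had signals of 1988 and 2147 at E14.5 and of 1312 and 1451 at E18.5 in the mutant, a ratio of 0.668 (0.611-0.730), beside 0.475 in the control, and Eya1 and Sall1 had mutant ratios of 0.682 and 0.712 beside 0.463 and 0.491, while their dimmer probe sets gave 0.974 and 1.12 for Eya1 and 1.05 for Sall1. Cited1, of the outermost progenitors, had signals of 815 and 614 at E14.5 and of 965 and 1076 at E18.5, a ratio of 1.43 (1.18-1.75). All 3 ratios below 1 and that of Cited1 kept to one side of 1 over the pairings.

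Of 18 renal vesicle genes, 1 was higher at E18.5, and their log2 ratios had a median of 0.19 (-0.04 to 0.24). Wnt4, the signal that drives the change from mesenchyme to epithelium, had signals of 942 and 806 at E14.5 and of 1096 and 1082 at E18.5, a ratio of 1.25 (1.15-1.36), and Pax8, a paired-box factor of the early nephron, had signals of 440 and 418 at E14.5 and of 637 and 652 at E18.5. Fgf8, a growth factor of the vesicle, lay below the 40th percentile on all 4 arrays, between 84.2 and 118. Sostdc1, a secreted BMP and Wnt antagonist, was the gene counted, with signals of 113 and 110 at E14.5 and of 337 and 393 at E18.5 and a ratio of 3.26 (2.98-3.56), far below its control signals, whose means were 466 and 2910. The ureteric tip list had 0 of 15 genes counted and a median of 0.11, with Ret, the receptor for GDNF, at 0.884, Wnt11 at 1.09, and Etv4 and Etv5, ETS factors that act after Ret, at 1.12 and 1.02.

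Embryonic globins, which primitive red cells of the early circulation make, had the highest ratios at E14.5 by the brightest probe set. Hbb-y, the embryonic beta-like globin, had signals of 7189 and 6718 at E14.5 and of 21.5 and 20.7 at E18.5, and was 330-fold (312-348) higher at E14.5, and its 3 probe sets ranged from 31.4-fold to 330-fold. The E18.5 signals lay far below the 40th percentile of their arrays, 193 and 177, where a fold depends on the background that is left in a signal. Hba-x, the embryonic zeta globin, had signals of 1444 and 1281 at E14.5 and of 159 and 155 at E18.5, 8.68-fold (8.04-9.33). The control means were 6796 and 24.3 for Hbb-y, near those of the mutant, and 897 and 130 for Hba-x, which is 6.88-fold. Hbb-bh1, another embryonic globin, was 2.01-fold higher, and Hbb-b2, at 3.20-fold (1.93-5.94), differed 1.5-fold or more between the E18.5 mutant arrays, with 619 and 287. Globin genes are near-identical copies, so their signals may mix. Of the 15 erythroid genes on the array, 4 were higher at E14.5 and the median log2 ratio was -0.15 (-0.17 to -0.04). Hba-a1, an adult alpha globin, was at 1.03, with signals of 202 and 226 at E14.5 and of 241 and 200 at E18.5. These lay close to the 40th percentiles of their arrays, 184 and 182 at E14.5, so the ratio does not show whether adult globin changed. The beta globins Hbb-b1, Hbb-bs and Hbb-bt were not among the genes read.

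Genes of cell division were lower at E18.5. All 24 mitosis genes had a ratio below 1, 3 were counted as higher at E14.5, and the median log2 ratio was -0.85 (-0.98 to -0.69), beside -0.82 (-0.95 to -0.72) and 4 counted in the control. Of 27 DNA replication genes, 25 had a ratio below 1 and 4 were counted, with a median of -0.65 (-0.80 to -0.49) beside -0.78 in the control. The summed signal of the mitosis list was 32495 and 33770 at E14.5 and 17916 and 21074 at E18.5. Most members thus fell short of a 2-fold ratio while both E18.5 sums lay below both E14.5 sums.

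Kif20a, a kinesin of the cleavage furrow, had signals of 546 and 488 at E14.5 and of 191 and 264 at E18.5, 2.27-fold (1.85-2.85) higher at E14.5. Cenpe, the kinetochore kinesin, had signals of 983 and 904 at E14.5 and of 370 and 473 at E18.5, 2.24-fold (1.91-2.66), and Kif23, the kinesin of the central spindle, had signals of 1423 and 1782 at E14.5 and of 691 and 796 at E18.5, 2.16-fold (1.79-2.58). Mki67, the proliferation antigen, and Cdk1, the mitotic kinase, were 1.85-fold and 1.81-fold higher at E14.5. Among the replication genes, Ccne2, a cyclin of entry into S phase, had signals of 667 and 523 at E14.5 and of 211 and 220 at E18.5, 2.76-fold (2.37-3.16) higher at E14.5. Rrm2, the ribonucleotide reductase subunit that limits nucleotide supply, was 2.45-fold higher, Cdc6, which loads the replicative helicase, 2.40-fold, and Uhrf1, which keeps DNA methylation through replication, 2.05-fold, while the helicase subunits Mcm2 to Mcm5 were 1.46-fold to 1.90-fold higher. Of the cell cycle inhibitors, Cdkn1a, p21, had signals of 284 and 275 at E14.5 and of 506 and 614 at E18.5, a ratio of 2.01 (1.79-2.23), and 15 of 17 genes of that list had a ratio above 1.

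Promoters of mitotic genes are known for the CCAAT box, bound by NF-Y, and for the cell cycle genes homology region (CHR, searched as TTTGAA). On both strands, 16 of 20 mitosis genes with a promoter held CCAAT within 250 bases before the start, against 37.5% of all genes and 33.8% of all promoters, and 8 of 20 held the CHR, against 18.3% and 16.0%. Both counted genes with a promoter, Kif23 and Cenpe, held a CCAAT box, and neither the CHR. Their stretches are shown with the box in capitals because it stands close to the start in each (GRCm38.p6, Kif23 at chr9:61946800-61947049, minus strand, and Cenpe at chr3:135212313-135212562, plus strand, both 5′ to 3′ along the gene). In Kif23 the box reads on the opposite strand.
Kif23: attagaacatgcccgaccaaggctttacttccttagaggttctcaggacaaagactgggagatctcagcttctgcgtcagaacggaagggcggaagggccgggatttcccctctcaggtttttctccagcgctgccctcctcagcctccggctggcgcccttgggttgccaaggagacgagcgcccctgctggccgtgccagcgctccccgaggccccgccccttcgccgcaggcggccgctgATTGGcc
Cenpe: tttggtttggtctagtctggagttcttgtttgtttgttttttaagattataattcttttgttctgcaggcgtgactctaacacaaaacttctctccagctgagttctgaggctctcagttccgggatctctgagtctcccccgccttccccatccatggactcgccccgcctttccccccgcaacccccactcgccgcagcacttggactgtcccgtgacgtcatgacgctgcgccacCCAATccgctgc

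Some factors of embryonic growth and chromatin were higher at E14.5. Hmga2, an architectural chromatin protein of embryonic tissues, had signals of 4492 and 5290 at E14.5 and of 1264 and 1090 at E18.5, 4.15-fold (3.55-4.85) higher at E14.5, and its 4 probe sets ranged from 1.36-fold to 6.54-fold. Its control ratio was lower still, 0.148 against 0.241 in the mutant. Sox11, an embryonic SOX factor, had signals of 4054 and 5423 at E14.5 and of 1688 and 1169 at E18.5, 3.32-fold (2.40-4.64), with a control ratio of 0.112, and its 6 probe sets ranged from 1.26-fold to 3.32-fold. Smarcc1, a subunit of the SWI/SNF remodelling complex, was 2.12-fold higher at E14.5 but differed 1.5-fold or more between the E18.5 mutant arrays, and its 3 other probe sets had ratios of 0.951, 1.06 and 1.47. Of 26 chromatin genes, 24 had a ratio below 1 and the median log2 ratio was -0.39 in the mutant and -0.47 in the control. Of 19 fetal growth genes, by contrast, Hmga2 was the 1 counted by the brightest probe set and the median was 0.06. Igf2bp1, an RNA-binding protein of fetal tissues, had a ratio of 1.22 by its brightest probe set, but the others were 1.22-fold, 1.55-fold and 2.03-fold (1.82-2.25) higher at E14.5, and the last was counted. Its relative Igf2bp3 had a ratio of 0.726 by its brightest probe set and of 0.407 to 0.706 by the others, 2 of which were counted.

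The other leading genes at E14.5 belonged to different pathways, and in many of them the fold was that of the brightest probe set alone. Mxd3, a partner of MAX, was 4.82-fold (3.46-7.08) higher at E14.5, with signals of 860 and 692 at E14.5 and of 200 and 122 at E18.5. Smc4, a condensin subunit, was 3.95-fold (2.40-7.85) higher, with signals of 2871 and 3721 at E14.5 and of 1196 and 474 at E18.5. Both differed 1.5-fold or more between the E18.5 mutant arrays, as did Rpf2, Sephs2 and Gpr107, which were 3.77-fold, 3.58-fold and 3.34-fold higher. Other probe sets gave 1.05-fold and 1.11-fold for Mxd3, 1.67-fold and 1.68-fold for Smc4, 1.04-fold to 1.88-fold for Rpf2 and 1.32-fold and 1.98-fold for Sephs2, and the 4 others of Gpr107 had ratios of 1.02 to 1.18, in the opposite direction. Among the unmarked ones Bbip1, a subunit of the BBSome of cilia, had signals of 5165 and 6384 at E14.5 and of 1655 and 1285 at E18.5, 3.93-fold (3.12-4.97), while its 2 other probe sets had ratios of 1.01 and 0.776. Asb6, Rpl27a, Rpgrip1, Egfl8 and Snapin ranged from 3.41-fold to 3.92-fold. The other probe sets had ratios of 1.02 for Asb6, 0.646 for Rpl27a, 0.873 to 1.02 for Rpgrip1 and 1.36 for Snapin, and Egfl8 had a single one. In all 15 leading genes at E14.5 the lower E18.5 signal was that of array 2, and in 12 of 15 the higher E14.5 signal was that of array 2. By any probe set Sod1, superoxide dismutase, stood at 8.64-fold and Pabpc4l, a poly(A)-binding protein, at 5.35-fold, both through probe sets whose E18.5 mutant duplicates were more than 1.5-fold apart. The brightest Sod1 probe set had a ratio of 1.07, and the brightest of Pabpc4l was 2.48-fold higher at E14.5. Robo2 and Cdh2, chosen after their values were seen for their close duplicates, were lower at E18.5 by probe sets with little spread. Robo2, a SLIT receptor that limits where the ureteric bud forms, had signals of 2302 and 2400 at E14.5 and of 710 and 745 at E18.5, 3.23-fold (3.09-3.38), and Cdh2, N-cadherin, was 2.71-fold (2.65-2.76) higher at E14.5. A dimmer Cdh2 probe set gave 1.85-fold with a wider range (1.51-2.27) and was not counted.

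**Figure D3:**
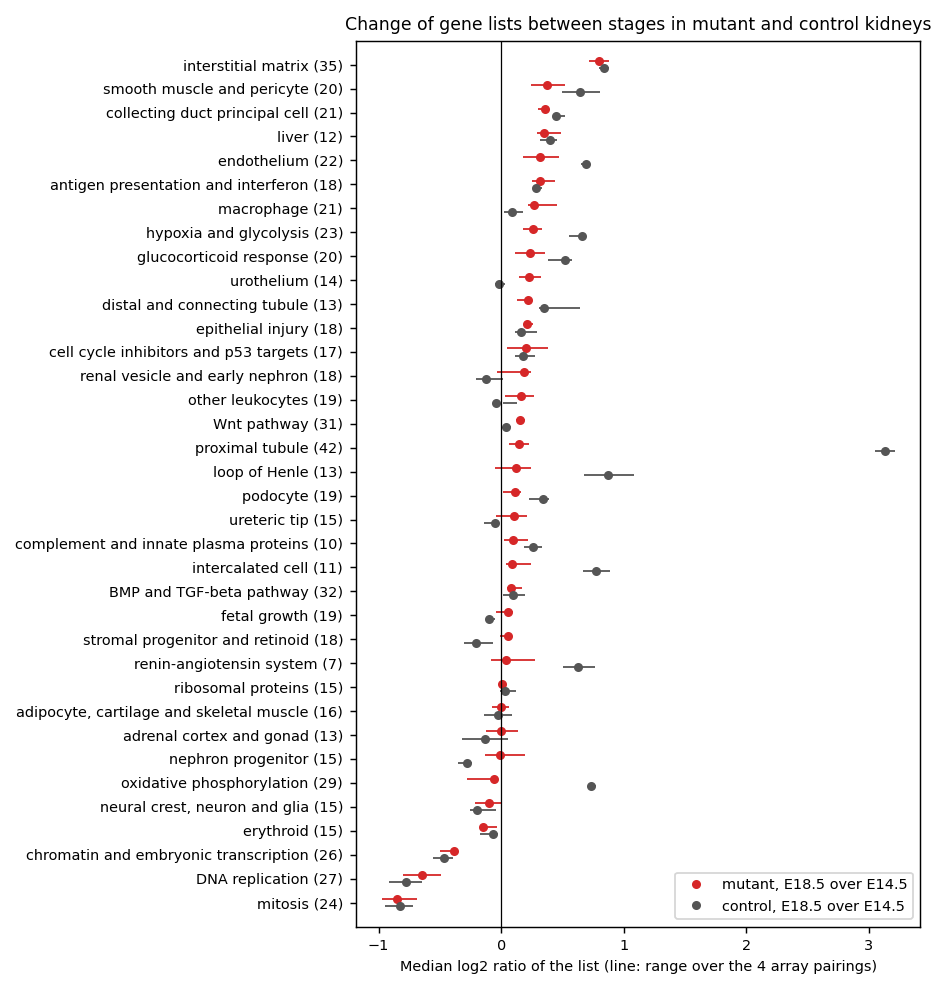
Medians of log2 signal ratios (E18.5 divided by E14.5) for 36 gene lists in mutant (red) and control (grey) kidneys, with the number of genes on the array in brackets and lines for the range over the 4 array pairings. The genotypes lie close together for interstitial matrix (0.80 and 0.84) and mitosis (-0.85 and -0.82) and apart for proximal tubule (0.15 and 3.13) and oxidative phosphorylation (-0.06 and 0.73).

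Counts in the lists of cell state stand beside mutant shares over all named genes of 0.896% higher at E18.5 and 0.742% at E14.5. A count of 0 in lists of this length is near those shares. Oxidative phosphorylation had 0 of 29 genes counted and 9 ratios above 1 in the mutant, with a median log2 ratio of -0.06 (-0.28 to -0.04), whereas 10 were higher at E18.5 in the control and the median was 0.73. Ndufa4, a subunit of the respiratory chain, had signals of 2760 and 2315 at E14.5 and of 3143 and 3180 at E18.5 in the mutant, a ratio of 1.25 against 2.13 in the control, and Ndufb9 of complex I had 0.833 against 2.00. In the hypoxia and glycolysis list, 0 of 23 were counted and the median was 0.26 in the mutant, against 4 and 0.66 in the control. Pfkl, the liver form of phosphofructokinase, had a mutant ratio of 1.78 (1.59-1.99) and a control ratio of 3.51. Glucocorticoid response genes had a median of 0.23 with 1 of 20 counted, Cdkn1a, against 0.52 and 5 in the control. Tsc22d3, which glucocorticoids induce, was at 1.63 in the mutant and 2.05 in the control, and Per1 at 1.31 and 1.44. Fkbp5 was at 0.870 and 0.992, and Zbtb16 at 0.995 and 0.801. Signalling lists had 0 of 31 Wnt genes and 0 of 32 BMP and TGF-beta genes counted and medians of 0.15 and 0.08, and 0 of 15 ribosomal protein genes with a median of 0.01.

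Epithelial injury genes had a median log2 ratio of 0.21 in the mutant, with 1 of 18 counted by the brightest probe set. It was Ccn2, at 2.30 (2.06-2.56) against 4.11 in the control. Clu was at 1.61 by its brightest probe set and at 1.68, 2.00 and 2.03 by the others, the last 2 of which were counted. The defining markers Havcr1 and Lcn2 were not counted. Havcr1, kidney injury molecule 1, had a ratio of 1.14 (0.955-1.38), and Lcn2, lipocalin 2, had signals of 241 and 195 at E14.5 and of 304 and 284 at E18.5, a ratio of 1.35 (1.18-1.56) against 0.793 in the control. Genes of tissues that border the kidney were read as well. The neural list and the adrenal and gonad list had 0 genes counted, with summed signals of 3913 to 3916 at E14.5 and 3801 to 3903 at E18.5 for the former and of 2650 to 2724 and 2708 to 2962 for the latter. Of 12 liver genes, 2 were higher at E18.5, with summed signals of 2385 to 2486 at E14.5 and 3263 to 3456 at E18.5. Alb, albumin, had signals of 278 and 293 at E14.5 and of 648 and 803 at E18.5, a ratio of 2.54 (2.22-2.89), and Ttr, transthyretin, had 2.43 (2.05-2.88) against 18.1 in the control, while the liver genes Apoa1 and Apoa2 were at 1.38 and 1.03. Fabp4, of fat cells and small vessels, was the 1 gene counted of 16 from fat, cartilage and skeletal muscle, with a ratio of 2.55 (2.16-3.06), and the fat cell gene Adipoq was at 0.825. Their part in the other results was not tested.

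The stage change of the mutant lay largely within that of the control. By any probe set 210 genes were higher at E18.5 in both genotypes, which are 73.9% of the mutant genes and 21.6% of the control genes, and 278 were higher at E14.5 in both, 79.2% and 38.8%. Over all named genes and unnamed probe sets, 3.42% were higher at E18.5 and 2.53% at E14.5 in the control, and 1.00% and 1.24% in the mutant. The pools of the 2 genotypes share no array. Of the 163 mutant genes higher at E18.5 by the brightest probe set, 161 had a control ratio above 1, with medians of 2.43 in the mutant and 2.69 in the control. Read the other way, the 649 control genes had a median mutant ratio of 1.41, and 123 of them were counted in the mutant, while the 220 control genes higher at E14.5 had a median of 2.01-fold in the mutant, and 112 were counted. Genes counted in opposite directions numbered 5 (Actb, Fscn1, Malat1, Sema5a and Supt20) and 4 (Myh9, Oxct1, Rock1 and Ywhaz), named here after their values were seen. In each case different probe sets of the gene were counted, and 0 single probe sets were counted in opposite directions. In Oxct1, the mitochondrial enzyme that uses ketone bodies, all 4 probe sets nevertheless had a lower ratio in the mutant, from 0.313 to 1.24, than in the control, from 0.804 to 3.73.

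**Figure D4:**
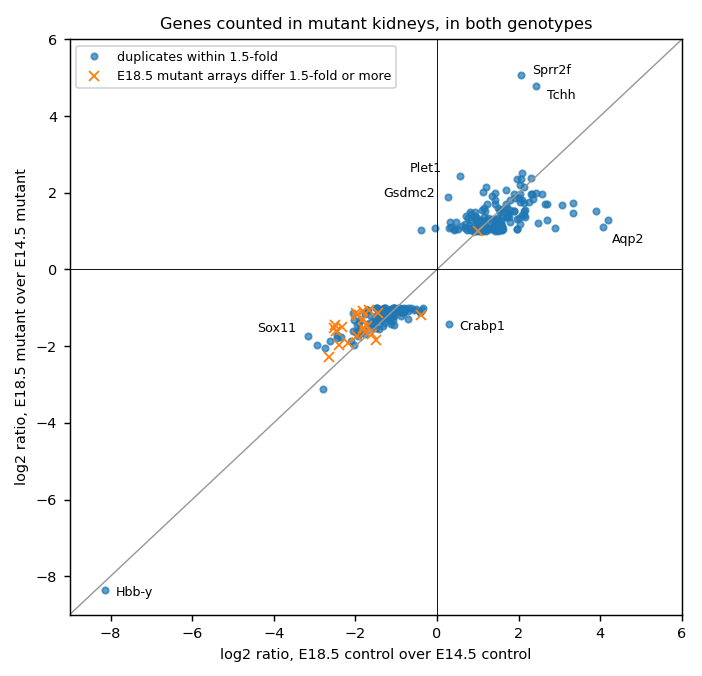
Log2 signal ratio (E18.5 divided by E14.5) in mutant kidneys against that in control kidneys for the 163 and 135 genes counted in the mutant, with crosses where the E18.5 mutant arrays differed 1.5-fold or more and a grey line of equal change. Sprr2f, Tchh, Plet1 and Gsdmc2 lie above the line, Aqp2 below it, and Crabp1 (0.37 in the mutant and 1.22 in the control, as ratios) lies on the lower side of 0 in the mutant alone.

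Gene counts also depended on which probe set was read. Single values above are of a gene's brightest probe set unless stated, and dimmer ones went the other way in some further genes that were counted. They gave ratios below 1 for Car12 (0.705), Fn1 (0.757), Myh11 (0.80), Dcn (0.903) and H2-D1 (0.987), which were higher at E18.5 by the brightest, and above 1 for Kif23 (1.22), which was higher at E14.5. Of the 245 named genes higher at E18.5 by any probe set, 82 were counted only by a probe set other than the brightest, and the median ratio of their brightest was 1.35. Of the 272 higher at E14.5 it was 137, whose brightest probe sets were a median of 1.24-fold higher at E14.5.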

How the data were processed

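Signals were deposited by the authors as 1 intensity per probe set of the Affymetrix mouse 430 2.0 design on each of 8 arrays. Per the labels and the study's methods, each pool's RNA was labelled in 2 separate reactions, arrays were scanned with Microarray Suite 5.0, scaled, and normalized in dChip by an invariant set of probes. The intensities were used on the linear scale as deposited, with signals under 1 raised to 1. Of 45101 probe sets, 34958 have 1 gene in the platform annotation, 932 several and 9211 none, and 34754 were matched to RefSeq by gene identifier to update symbols. Ratios, counts and medians were computed with Python 3.11.15, numpy 2.4.6 and pandas 2.3.3, and the criteria were checked on simulated data. Array medians ranged from 225 to 243, above the median intensities that the study gives for its normalized arrays. How the deposited values relate to those normalized values was not tested. Precision is limited by having 1 pool and 2 arrays a condition, which allows no test. The members and the 36 gene lists (684 genes on the array) were chosen with earlier results of these data known. The rule for genes named was Lhx1, the 15 highest ratios in each direction, the 5 highest by any probe set, the first 4 genes of each list, and the 3 highest and 3 lowest counted genes of each list. Alternatives covered the minimum signal, normalization, means, background, probe set, criteria, pairing of array numbers and leaving out each array. Promoters are RefSeq's for GRCm38.p6. A median over all named genes stands beside the list medians in place of a set test.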

Additional observations from a re-analysis of the deposited data

Results flagged for a closer look

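Crabp1 and Krtdap moved in opposite directions in the 2 genotypes on every array pairing. Crabp1, which binds retinoic acid, had a stage ratio (E18.5 divided by E14.5) of 0.370 (0.345-0.399) in the mutant and of 1.22 (1.15-1.29) in the control. Its E18.5 mutant signals (105 and 106) and its E14.5 control signals (178 and 168) lay below the 40th percentile of their arrays. Krtdap, a keratinocyte protein, had a ratio of 2.02 (1.79-2.29) in the mutant and of 0.765 (0.630-0.920) in the control. Its signals lay below the 40th percentile at both stages in the control and at E14.5 in the mutant. The ratios of both genes thus rest in part on low signals. The difference between the genotypes was not tested for either gene.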

How the results depend on the processing

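Counts by any probe set were 284 genes higher at E18.5 and 351 higher at E14.5. Adding 50 units to every signal gave 181 and 257, and reading the brightest probe set gave 163 and 135. Leaving out each array in turn gave 194 to 449 higher at E18.5 and 316 to 540 higher at E14.5, where the highest count in each direction came without E18.5 mutant array 1 (449 and 540). The deviations of same-numbered mutant arrays had a correlation of -0.28 over 27061 probe sets. How the preparations of the 2 mutant pools relate to each other was not tested. A replicate block, in which both same-numbered pairs had to reach 2-fold, gave 164 and 201, and the crossed pairing, chosen after seeing the data, gave 205 and 224. The other alternatives, on minimum signal, normalization, means, criteria and probe sets that differed between the duplicates, gave 251 to 343 and 273 to 394. Of the list medians, 349 values under the alternatives lay within their range over pairings and 47 outside it, among them the 1 that changed sign, that of oxidative phosphorylation, at 0.0083 after quantile normalization. Of the named genes' log2 ratios, 1664 values lay within that range, 46 outside it, and 0 of those counted changed sign. With 50 units added, Hbb-y went from -8.37 to -6.62, Sprr2f from 5.06 to 4.47 and Tchh from 4.78 to 2.79, and without E18.5 mutant array 1, Smc4 was at -2.80, Gpr107 at -2.48 and Hbb-b2 at -2.34. The causes were not tested, apart from the added units, which by construction shrink the ratios of low signals. Signals below the 40th percentile set a limit on every fold that rests on them.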

Other observations

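Among the genes higher at E14.5 whose mutant and control ratios differed most, several that take part in making ribosomes and in mitochondria were chosen after their values were seen. Pno1, a factor of small ribosomal subunit assembly, had signals of 1257 and 1083 at E14.5 and of 419 and 534 at E18.5 in the mutant, 2.46-fold (at least 2.03 over the pairings) higher at E14.5 against 1.62-fold in the control. Hspe1, the mitochondrial cochaperonin, had signals of 3419 and 3219 at E14.5 and of 1416 and 1659 at E18.5, 2.16-fold (1.94-2.42) against 1.33-fold. Dkc1, the pseudouridine synthase dyskerin, was 2.03-fold (1.61-2.60) higher at E14.5 against 1.44-fold, Mrps22, a mitochondrial ribosomal protein, 2.02-fold (1.61-2.56) against 1.27-fold, and Nme1, a nucleoside diphosphate kinase, 2.11-fold (1.79-2.54) against 1.63-fold. These are values of the brightest probe sets. In the dimmer ones of Dkc1 the genotypes stood the other way. Their stage ratios (E18.5 divided by E14.5) were 0.686 and 0.459 in the mutant and lower, 0.526 and 0.378, in the control. The differences between genotypes were not tested.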
